A study of Mus musculus with 36 samples.

Results

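The genes described here encode 9 carriers that move organic ions and drugs into and out of the hepatocyte: Slco1a1, Slco1a4, Slco1b2, Slco2b1, Slc22a7, Abcc2, Abcc3, Abcc4 and Abcg2. They were chosen by name, and each was found once among the 53715 genes of the count table. All 9 were abundant enough to be tested. The livers came from 36 male C57BL/6 mice that began their diets at 4 weeks of age, ate them for 6 weeks and were 10 weeks old at sampling. The diets were AIN93G alone (control), AIN93G with 10% red tomato powder (red) and AIN93G with 10% tangerine tomato powder (tangerine), with 12 libraries per diet. All mice, controls included, therefore ate the purified AIN93G base. The labels give each library its own mouse number, and no mouse appears in more than 1 diet.

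Hepatocytes clear the blood of bile acids, bilirubin, hormone conjugates and drugs in steps. Organic anion transporting polypeptides (the Slco family) and the Slc22 carriers take these compounds up across the sinusoidal membrane that faces the blood. ATP-driven pumps of the Abc family then export them, either across the canalicular membrane into bile (Abcc2, Abcg2) or back across the sinusoidal membrane into blood (Abcc3, Abcc4). Many of these genes are known to respond to receptors that sense foreign chemicals, bile acids and oxidative stress. Red tomatoes carry mostly all-trans lycopene, whereas tangerine tomatoes carry mostly a poly-cis form of the same carotenoid.

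The libraries held between 21290169 and 33810573 counts, so all members except Abcc4 rested on at least 495 counts in every library. Levels are given in CPM, counts scaled to a common library size after normalization between libraries. The summed level of 6 hepatocyte markers ran from 82995 to 123180 CPM, as the liver label calls for. Red 186 had a summed level of 5 T cell markers of 158.7 CPM, far above every other library, and Tangerine 216 had 11.1 CPM of acinar pancreas markers. Control 137 had the fewest counts, and both it and Tangerine 225 had low sums of endothelial markers, 36.2 and 49.8 CPM against medians of 107 to 108 CPM in the 3 diets. In bulk tissue, fewer cells of a type and less RNA per cell cannot be told apart.

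Among the members, the uptake carriers Slco1b2 and Slco1a1 had the highest levels per kilobase of exon. The median over 36 libraries was 306 CPM per kilobase for Slco1b2, the mouse counterpart of the human hepatic statin carriers, and 208 for Slco1a1, a sex-biased uptake carrier that is abundant in male mouse liver. Slco1b2 exceeded Slco1a1 in 36 of 36 libraries, and Slco1a1 exceeded the next gene, Abcc2, in all 36. Abcc2, the canalicular pump for bilirubin glucuronides, had a median of 66.8 CPM per kilobase and Slc22a7, an uptake carrier of small organic anions, had 55.8. These neighbours overlapped, with Abcc2 the higher in 26 of 36 libraries. Slco2b1, a broadly expressed uptake carrier, followed at 23.1 CPM per kilobase, below Slc22a7 in every library. Abcc3, which pumps glucuronides into blood, had 15.2, and Slco2b1 exceeded it in 33 of 36 libraries. Abcg2, the breast cancer resistance protein that exports sulfated compounds and drugs into bile, had 10.1, below Abcc3 in 33 of 36. Slco1a4, an uptake carrier known as a target of the pregnane X receptor, had 7.21 and overlapped Abcg2, which was the higher in 25 of 36. Abcc4, a pump for bile acids and cyclic nucleotides, had a median of only 0.344 CPM per kilobase and 15 to 85 counts per library.

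Slco1a1, Slco1a4 and Slco1b2 lie in the same region of chromosome 6. In GRCm38 they occupy chr6:141907282-141946962 (minus strand), chr6:141805440-141856199 (minus strand) and chr6:141629518-141686646 (plus strand). The 250 bases before each start in RefSeq are printed below for these 3 neighbours, whose levels rose and fell together from library to library, as shown further on. Abcc2, on chromosome 19, varied with them as well. Its window is not printed because it overlaps the first exon in GENCODE. Much of the covariation of the 3 neighbours went with a property of the libraries, also described there. With that property removed, Slco1a1 and Slco1a4 had a Pearson r of -0.0025, and Slco1a4 and Slco1b2 of 0.40. The windows are chr6:141946963-141947212 on the minus strand, chr6:141856221-141856470 on the minus strand and chr6:141629268-141629517 on the plus strand, each read 5′ to 3′. Capitals mark every match, on either strand, to 6 motifs.
Slco1a1: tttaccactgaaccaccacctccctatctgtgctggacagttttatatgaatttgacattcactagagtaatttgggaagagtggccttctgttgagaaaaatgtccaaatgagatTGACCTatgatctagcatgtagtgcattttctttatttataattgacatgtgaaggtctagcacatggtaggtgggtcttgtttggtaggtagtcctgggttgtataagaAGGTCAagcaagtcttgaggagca
Slco1a4: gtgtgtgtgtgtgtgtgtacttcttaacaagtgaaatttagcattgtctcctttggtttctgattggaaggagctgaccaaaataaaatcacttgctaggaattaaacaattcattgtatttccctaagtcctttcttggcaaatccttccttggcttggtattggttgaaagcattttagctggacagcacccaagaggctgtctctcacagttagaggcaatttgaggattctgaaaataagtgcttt
Slco1b2: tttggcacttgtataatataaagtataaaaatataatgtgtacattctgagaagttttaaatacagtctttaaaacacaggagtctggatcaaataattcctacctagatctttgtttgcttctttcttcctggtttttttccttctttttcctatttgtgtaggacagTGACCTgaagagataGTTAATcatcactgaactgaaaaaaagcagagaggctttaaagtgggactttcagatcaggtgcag
The motifs searched were the nuclear receptor hexamer AGGTCA, the HNF1 core GTTAAT, the antioxidant response element core TGACNNNGC, the xenobiotic response element core GCGTG, the E-box CACGTG and the D-box TTATGNAA. The letters TGAC are shared by the antioxidant core and the reverse complement of the hexamer. Slco1a1 held the hexamer at 24 to 19 bases before its start and, on the other strand, at 134 to 129. Slco1b2 held it on the other strand at 81 to 76 bases before its start, and the HNF1 core at 66 to 61. The window of Slco1a4 held none of the 6 motifs. Of 32851 RefSeq promoter windows of the same length, 14% held AGGTCA and 6.43% held GTTAAT. For the other motifs the shares were 10.2% for TGACNNNGC, 28.2% for GCGTG, 6.02% for CACGTG and 3.07% for TTATGNAA. A match is a description of these letters only.

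None of the 9 members passed an adjusted p of 0.05 between diets. This held when red or tangerine was set against control, when the tomato diets were set against each other or pooled against control, and when all 3 diets were tested at once (edgeR's quasi-likelihood test over 14068 genes, Benjamini-Hochberg adjustment). Over all genes, 0.149% passed with red and 0.0142% with tangerine set against control. The shares were 1.71% for tangerine against red, 0.00711% for the pooled tomato diets and 1.18% for all 3 diets at once. At an unadjusted p under 0.05 the red and control livers differed in 3 of 9 members, namely Abcc3, Abcg2 and Slco1a4, where 13.3% of all genes did. Tangerine and control differed in 0 of 9 against 5.47% of all genes, and tangerine and red in 1 of 9, Slco2b1, against 15.1%. For both tomato diets against control 1 of 9, Abcc3, passed against 6.77% of all genes, and for any difference 1 of 9, again Abcc3, against 13.9%. The comparisons with control share the same 12 control libraries. DESeq2 called 1 of 9 members in red against control, Abcc3, and 0 elsewhere. It gave Abcc4 no adjusted p in tangerine against control and for the pooled tomato diets. Of all genes it called 1.17% with red against control, 0.0426% with tangerine against control, 2.78% between the tomato diets, 0.0853% for the pooled tomato diets and 2.72% for any difference. The limma-voom fit with sample weights called 2 of 9 in red against control, Slco1a4 and Slco1b2, and 0 elsewhere. Its shares of all genes were 10.5%, 0.0142%, 5.2%, 0.242% and 7.9% in the same order.

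**Figure D1:**
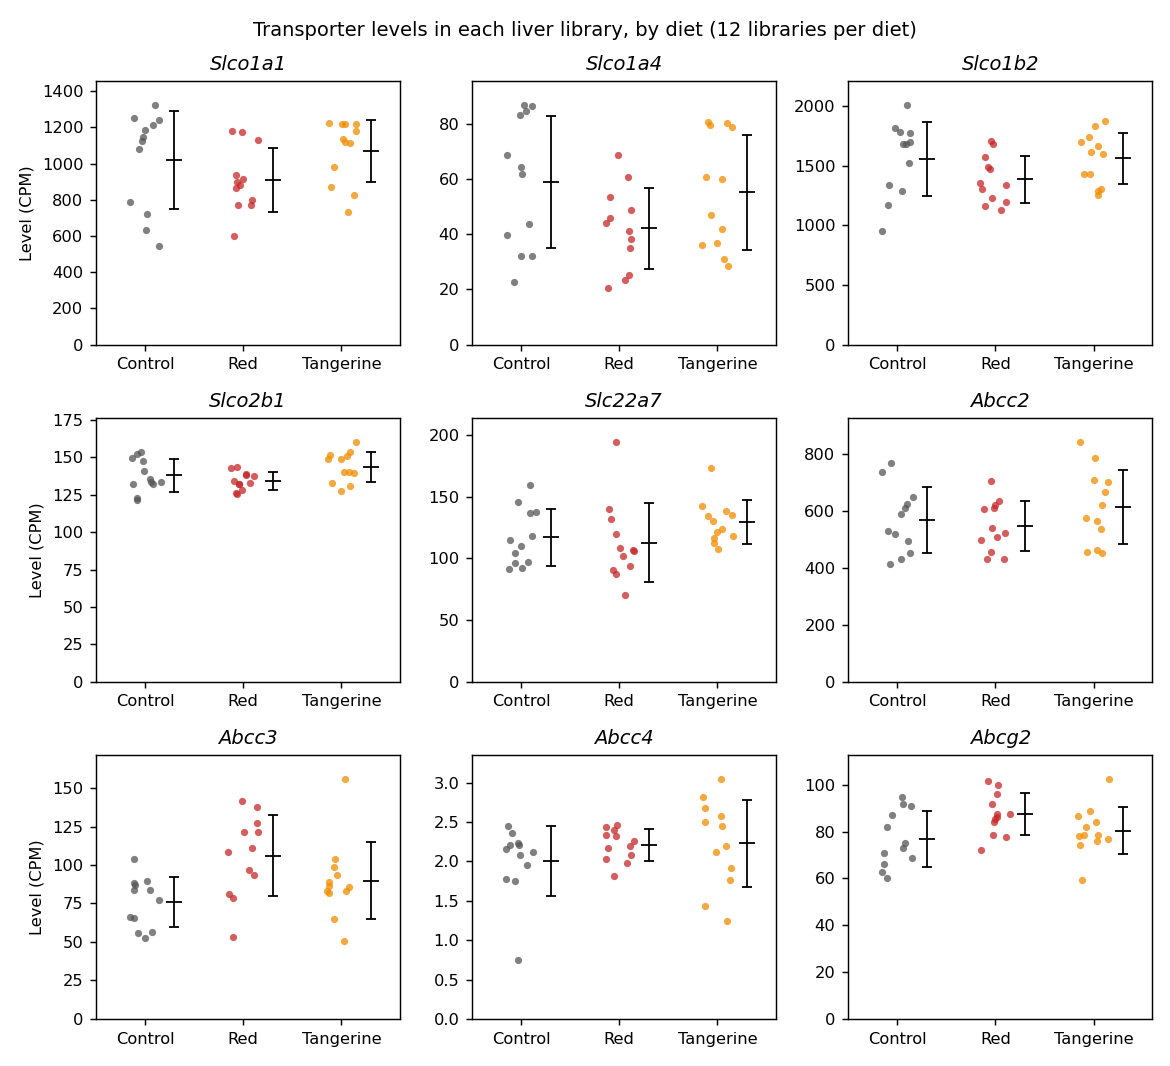
Level of each transporter (CPM, linear axes from 0) in 12 Control, 12 Red and 12 Tangerine liver libraries. Points are libraries, and the bar beside them is the mean with its SD. The diets overlap for every gene, and the widest relative spread over the 36 libraries is that of Slco1a4, from 20.5 to 86.7 CPM.

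Among the uptake carriers, Slco1a4 had the lowest levels in the red diet. Its control libraries ran from 22.7 to 86.7 CPM with a median of 63.2, its red libraries from 20.5 to 68.8 with a median of 42.4, and its tangerine libraries from 28.4 to 80.6 with a median of 53.4. The ranges overlapped widely, and 1 of 12 red libraries lay above the control median. The log2 fold change for red against control was -0.48 (SE 0.23), with a 95% interval from -0.95 to -0.02 and an adjusted p of 0.356 by edgeR. Tangerine differed from control by -0.09 (SE 0.23) and from red by 0.39 (SE 0.23), with adjusted p of 0.9999 and 0.423 by edgeR. The limma-voom fit gave -0.71 for red against control with an adjusted p of 0.0422.

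Slco1a1 and Slco1b2 had the same order of medians as Slco1a4. Slco1a1 ran from 543 to 1323 CPM in control (median 1136), from 598 to 1179 in red (median 891) and from 731 to 1223 in tangerine (median 1128). The control libraries of Slco1a1 spanned the red and tangerine ranges completely. Slco1b2 ran from 950 to 2010 CPM in control (median 1682), from 1129 to 1710 in red (median 1349) and from 1257 to 1874 in tangerine (median 1609). Here too every red and tangerine library lay within the control range, and 1 of 12 red libraries lay above the control median. The log2 fold changes for red against control were -0.16 (SE 0.13, adjusted p 0.607 by edgeR) for Slco1a1 and -0.17 (SE 0.10, adjusted p 0.457 by edgeR) for Slco1b2. By limma-voom that of Slco1b2 was -0.26, with an adjusted p of 0.0324. For tangerine against control the differences were 0.07 (SE 0.13) for Slco1a1 and 0.00 (SE 0.10) for Slco1b2, each with an adjusted p of 0.9999 by edgeR. For tangerine against red they were 0.23 (SE 0.13) and 0.17 (SE 0.10), with adjusted p of 0.389 and 0.400 by edgeR.

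Slco2b1 was the steadiest member, with a coefficient of variation of 7.04% over the 36 libraries. It ran from 122 to 153 CPM in control (median 134.5), from 126 to 143 in red (median 133.5) and from 127 to 160 in tangerine (median 145). In tangerine, 2 of 12 libraries lay above every control library. The log2 difference between tangerine and red was 0.10 (SE 0.04), from 0.01 to 0.19, with an unadjusted p of 0.0291 and an adjusted p of 0.266 by edgeR. Against control it was -0.04 (SE 0.04) for red and 0.06 (SE 0.04) for tangerine. Slco2b1 (chr7:99657804-99711340, minus strand) overlaps the antisense genes Gm15635 and Gm34280 and shares 5.89% of its 50-base words with other genes. The library kit keeps strand, but whether the counting used it is not given in the sources used here.

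Slc22a7 varied most in the red diet. Control libraries lay between 91.8 and 160 CPM (median 112.5), red between 70.4 and 194 (median 106) and tangerine between 108 and 174 (median 127). The lowest and the highest of all 36 libraries were both red, namely Red 186 and Red 156. Of the tangerine libraries, 10 of 12 lay above the control median, and the log2 difference from control was 0.15 (SE 0.12, adjusted p 0.9999 by edgeR). Red differed from control by -0.06 (SE 0.12, adjusted p 0.876 by edgeR). Over 36 fits that each left out 1 library this ran from -0.16 without Red 156 to -0.007, with edgeR adjusted p from 0.567 to 0.988. Tangerine differed from red by 0.20 (SE 0.12, adjusted p 0.413 by edgeR). Over the same fits this ran from 0.15 to 0.30 without Red 156, with edgeR adjusted p from 0.141 to 0.548.

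Of the canalicular pumps, Abcc2 differed little between diets. It ran from 413 to 770 CPM in control (median 561), from 433 to 706 in red (median 532) and from 453 to 843 in tangerine (median 599). The 2 highest libraries of all were tangerine, and the rest of that diet lay within the control range. The log2 fold changes were -0.06 (SE 0.11) for red against control, 0.11 (SE 0.11) for tangerine against control and 0.17 (SE 0.11) for tangerine against red, with adjusted p of 0.871, 0.9999 and 0.479 by edgeR.

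Abcg2 was higher in the red libraries by a small amount. Control ran from 60.2 to 94.7 CPM (median 73.9), red from 72.2 to 102 (median 86.9) and tangerine from 59.4 to 102 (median 78.4). In each tomato diet 11 of 12 libraries lay above the control median, and 3 red libraries lay above every control library. The log2 difference between red and control was 0.18 (SE 0.08), from 0.03 to 0.34, with an unadjusted p of 0.0192 and an adjusted p of 0.280 by edgeR. Tangerine differed from control by 0.06 (SE 0.08, adjusted p 0.9999 by edgeR) and from red by -0.12 (SE 0.08, adjusted p 0.462 by edgeR).

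Abcc3, a sinusoidal efflux pump known to carry bilirubin and drug glucuronides back into blood, had its highest median in the red diet. Control libraries ran from 52.5 to 104 CPM (median 80.4), red from 53.5 to 142 (median 110) and tangerine from 50.7 to 156 (median 86.0). Of the red libraries, 10 of 12 exceeded the median of the controls and 7 exceeded their highest value, as 2 tangerine libraries did. The low end of the 3 diets was alike, so the ranges still overlapped. Red against control gave a log2 fold change of 0.49 (SE 0.14), that is 1.40-fold with a 95% interval from 1.15 to 1.71. Its unadjusted p was 0.00166 and its adjusted p 0.118 by edgeR, and DESeq2 put the adjusted p at 0.0495. The limma-voom fit gave 0.38 with an adjusted p of 0.0778, a smaller difference than it gave for Slco1a4. Over 36 fits that each left out 1 library, the log2 fold change stayed between 0.44 and 0.55 and the edgeR adjusted p between 0.0777 and 0.188. Tangerine against control gave 0.24 (SE 0.14, adjusted p 0.954 by edgeR) and tangerine against red -0.24 (SE 0.14, adjusted p 0.426 by edgeR). For both tomato diets together against control Abcc3 gave 0.36 (SE 0.13), with an unadjusted p of 0.00619 and an adjusted p of 0.562 by edgeR.

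The second sinusoidal pump, Abcc4, stayed between 0.751 and 3.04 CPM over the 36 libraries. Its medians were 2.14 CPM in control, 2.23 in red and 2.32 in tangerine. In tangerine 6 of 12 libraries lay above every control library, and the lowest value of all was that of Control 137. The log2 fold changes were 0.13 (SE 0.13) for red and 0.15 (SE 0.13) for tangerine against control, with adjusted p of 0.693 and 0.9999 by edgeR. Tangerine and red differed by 0.02 (SE 0.13).

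**Figure D2:**
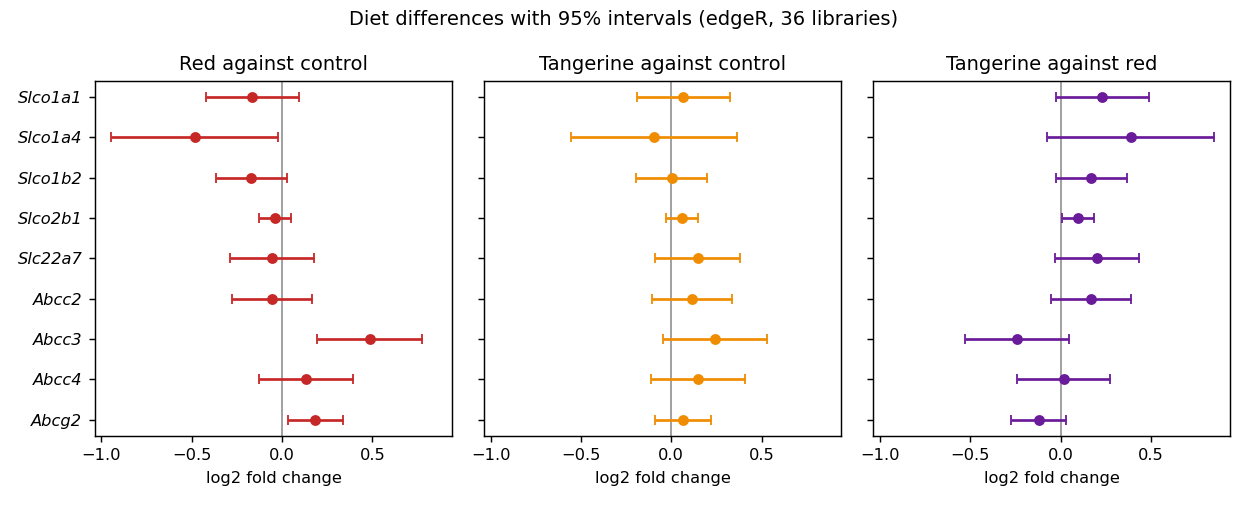
log2 fold change of each transporter with its 95% interval for 3 diet comparisons (edgeR, 36 libraries, common axis). For red against control the intervals of Abcc3, Abcg2 and Slco1a4 lie off 0, for tangerine against control none does, and for tangerine against red that of Slco2b1 does. No adjusted p is under 0.05.

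In direction, 3 of 9 members were above 0 in red against control, with a median log2 fold change of -0.06, where 48.5% of all genes were above 0 and their median was 0.00. In tangerine against control 8 of 9 were above 0 with a median of 0.07, where 44.6% of all genes were above 0 and their median was -0.01. In tangerine against red 7 of 9 were above 0 with a median of 0.17, where 48.5% of all genes were above 0 and their median was 0.00. The members varied together, as described next, so these counts are not independent votes.

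The members also varied between mice on the same diet. After removal of diet means, 9 of the 36 pairs of members were correlated over the 36 libraries at an adjusted p under 0.05 (permutation within diets, adjusted over the 36 pairs), 8 positively and 1 negatively. By Spearman's rho 10 pairs passed. Slco1a1 and Slco1b2 had r = 0.90 and rho = 0.89 (adjusted permutation p 1.2e-04 and 7e-05), with 0.97 within control, 0.85 within red and 0.79 within tangerine. The unadjusted p of 1e-05 behind both is the smallest that the permutations can give. Without the 2 libraries farthest from the median, r was 0.87. Slco1a4 and Abcc2, which lie on different chromosomes and on opposite faces of the cell, had r = 0.78 and rho = 0.81 (adjusted permutation p 1.2e-04 and 7e-05), with 0.75, 0.72 and 0.88 within control, red and tangerine. Without the 2 farthest libraries it was 0.75. Slco1a4 and Slco1b2 had r = 0.70 (rho 0.77), Slco1b2 and Abcc2 0.69 (rho 0.69), Slco1a1 and Slco1a4 0.60 (rho 0.70), and Slco1a4 and Abcc3 0.58 (rho 0.51). The remaining pairs past the threshold were Abcc2 and Abcc3 at 0.50, Slco1a1 and Abcc2 at 0.50, and Slco1a1 and Slco2b1 at -0.47. None of these 9 correlations changed sign without its 2 farthest libraries. Slc22a7, Abcg2 and Abcc4 were in none of the 9 pairs.

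Part of this covariation went with a property of the libraries. For each library the slope of gene levels on the GC content of the longest transcript was computed over 14050 other genes, in log2 CPM per 10 points of GC. A positive slope means that GC-rich transcripts took a larger share of that library. In control 8 libraries had slopes from -0.157 to -0.104 and 4 had slopes from 0.114 to 0.335, with none between, while red and tangerine libraries were spread from -0.121 to 0.231 and from -0.102 to 0.123. The slope did not pass between diets (red minus control 0.0665, permutation p 0.275, adjusted p 0.412). The level of Slco1a1, whose longest transcript is 38.5% GC, followed this slope with r = -0.96 and rho = -0.92 (adjusted permutation p 4e-05 for each), and with -0.98, -0.93 and -0.94 within control, red and tangerine. Slco1b2, at 38.6% GC, had r = -0.86, Slco1a4, at 40.3%, r = -0.63 and Abcc2, at 45.2%, r = -0.48. Slco2b1, at 51.5% GC, had r = 0.40 (rho 0.39), and 0.30 without the 2 farthest libraries. In all, 5 of 9 members passed by r and by rho. Abcg2, at 39.2% GC, did not, with r = -0.17, and neither did Abcc3 at 54.2% with r = -0.21.

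With the slope removed from both genes, 8 pairs passed by r, some of them different, and 4 by rho. Slco1a4 and Abcc2 still had r = 0.70, Slco1b2 and Abcc2 0.62, Slco1a4 and Abcc3 0.58, Slco1a1 and Slco1b2 0.54 and Abcc2 and Abcc3 0.47. Slco1a1 and Slco1a4 fell to r = 0.00, and Slco1a4 and Slco1b2 to 0.40 (adjusted permutation p 0.0604), so neither pair passed by r. Nor did Slco1a1 with Abcc2 (0.16, adjusted permutation p 0.534) or Slco1a1 with Slco2b1 (-0.32, adjusted permutation p 0.179). The pairs Slco1a1 with Slc22a7 (0.45), Slc22a7 with Abcg2 (0.45) and Slco1a4 with Abcg2 (-0.45) now passed by r, and of these Slc22a7 with Abcg2 also passed by rho. With the slope in the diet model, the red against control difference of Slco1a1 went from -0.16 to 0.03 (SE 0.04), that of Slco1b2 from -0.17 to -0.04 (SE 0.05) and that of Slco1a4 from -0.48 to -0.28 (SE 0.18). That of Abcc3 went from 0.49 to 0.51 (SE 0.15), with an adjusted p of 0.0702 by edgeR.

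**Figure D3:**
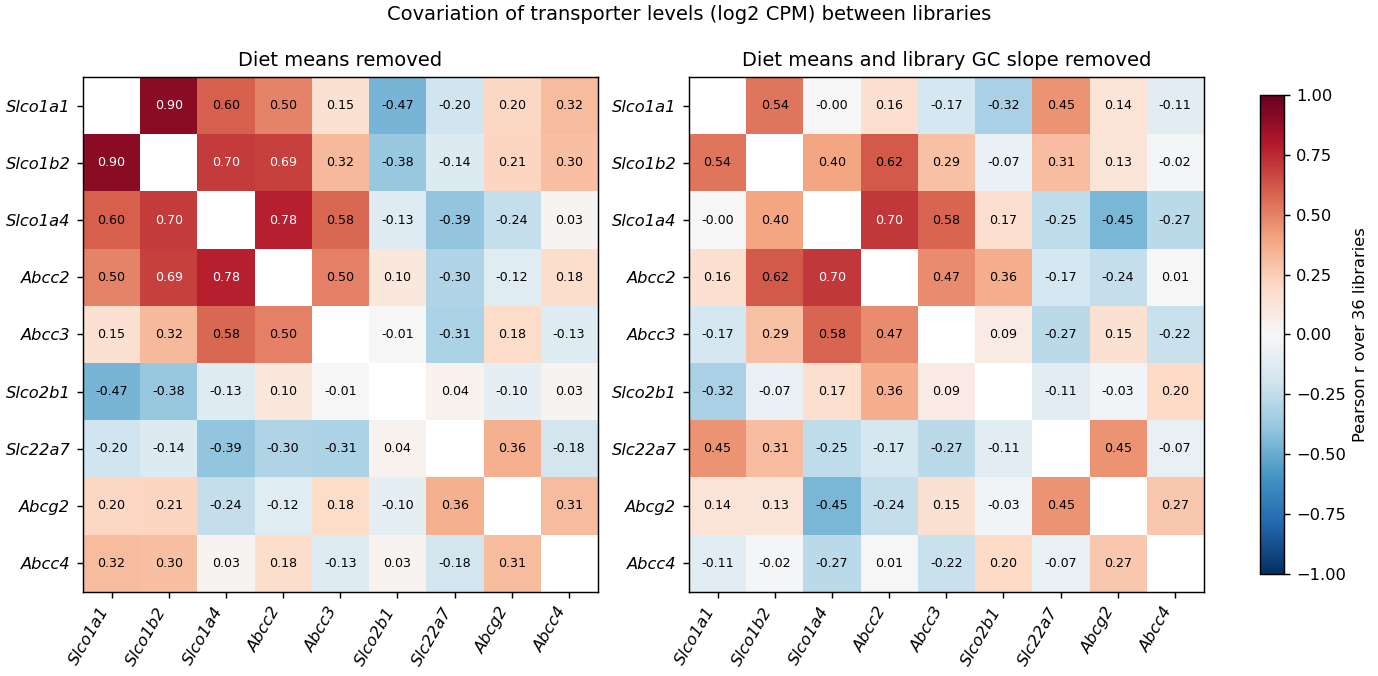
Pearson r between the levels (log2 CPM) of each pair of transporters over 36 libraries, with diet means removed (left) and with diet means and each library's GC slope removed (right). Slco1a1, Slco1b2, Slco1a4 and Abcc2 form a block on the left, with r from 0.50 to 0.90, and on the right Slco1a1 and Slco1a4 are at 0.00 while Slco1a4 and Abcc2 are at 0.70.

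The circadian clock is known to drive daily rhythms of many liver carriers, and the time of day at sampling is not given in the sources used here. A clock score was taken as the first principal component of 10 clock genes, which held 85.3% of their variance and rose with Dbp, a gene that peaks at a set time of day. It was lowest in red, at -2.45 ± 2.25 (SD, n = 12) in red, 0.832 ± 2.77 in control and 1.62 ± 2.02 in tangerine. Red minus control was -3.28 (adjusted permutation p 0.00846) and tangerine minus red was 4.07 (adjusted permutation p 7.2e-04), while tangerine minus control, at 0.785, did not pass (adjusted permutation p 0.439). Among the members only Abcc2 passed, with r = 0.55 and rho = 0.56 after removal of diet means (adjusted permutation p 0.00756 and 0.0072). Its r was 0.45, 0.63 and 0.65 within control, red and tangerine and 0.51 without the 2 farthest libraries. Slco1a4 had r = 0.43 (adjusted permutation p 0.0615). With the GC slope also removed, 3 members passed: Abcc2 at 0.63, Slco1a4 at 0.56 and Slco1b2 at 0.48.

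The diet differences of these genes moved when the clock score was put in the model. The red against control log2 fold change of Slco1a4 went from -0.48 to -0.12 (SE 0.25), and with the GC slope as well to 0.08 (SE 0.19). That of Abcc2 went from -0.06 to 0.16 (SE 0.11), and that of Slco1b2 from -0.17 to -0.09 (SE 0.11). Abcc3 went from 0.49 to 0.60 (SE 0.16), with an adjusted p of 0.249 by edgeR. The score itself was lower in the red diet, so in these fits diet and score share part of their variation.

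**Figure D4:**
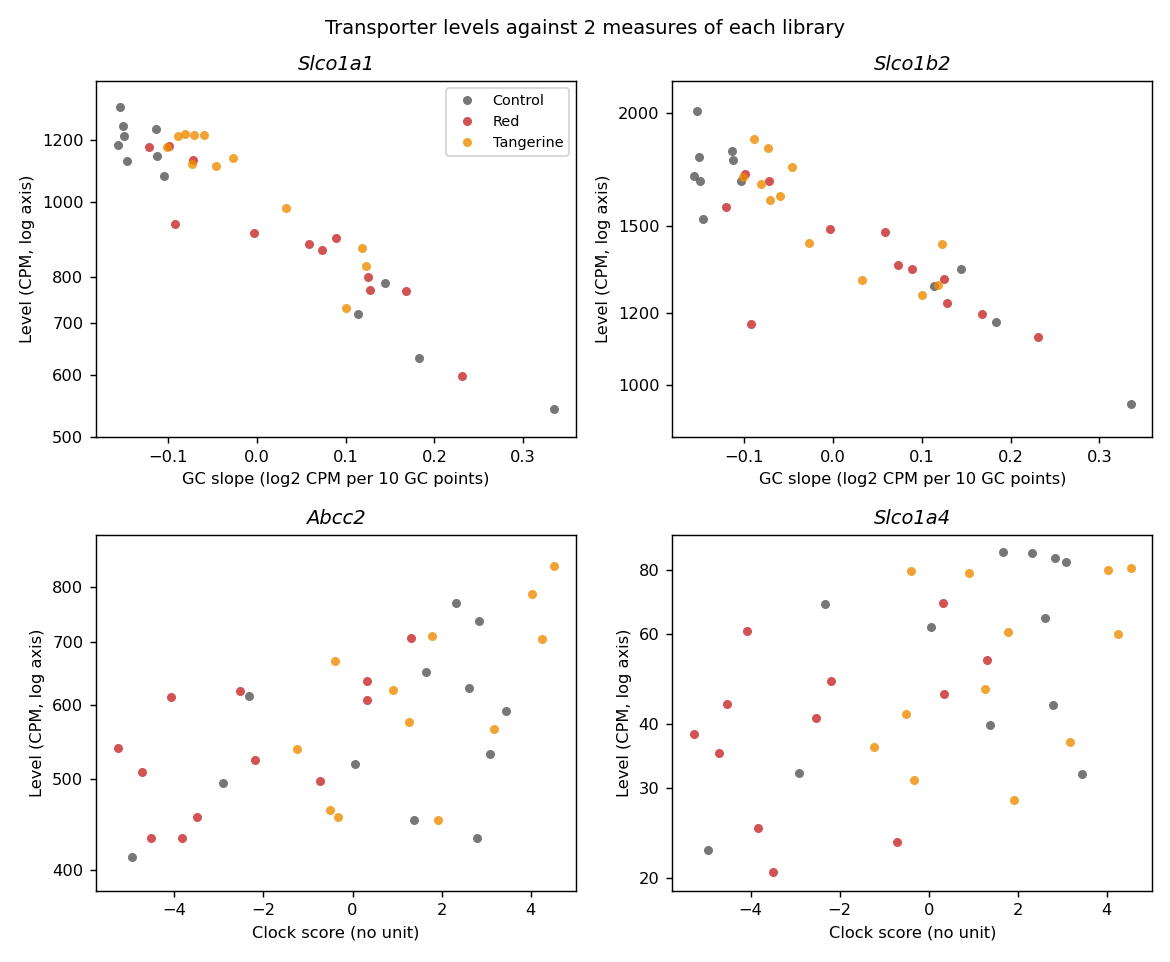
Level of Slco1a1 and Slco1b2 (CPM, log axes) against the GC slope of each library, and of Abcc2 and Slco1a4 against its clock score, over 36 libraries coloured by diet. Slco1a1 falls along 1 line in all 3 diets (r = -0.96), Abcc2 rises with the score (r = 0.55), and most red libraries sit at low scores. Both r were computed on log2 CPM after removal of diet means, whereas the points are plotted without that removal.

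The members were also set against the summed levels of markers of endothelial, Kupffer, stellate and bile duct cells, 36 relations in all. By r 4 passed and by rho 0 did. Abcc4 and the endothelial sum had r = 0.82 (adjusted permutation p 0.0173) but rho = 0.40 (adjusted permutation p 0.281). Without Control 137 and Tangerine 225 r was 0.36, and it was 0.92 within control, -0.29 within red and 0.79 within tangerine, so the relation rests on those libraries, which also had the lowest Abcc4 levels, 0.751 and 1.24 CPM. Abcc4 and the Kupffer sum had r = 0.61, and 0.11 without the same libraries. Abcg2 and the Kupffer sum had r = 0.49 and rho = 0.44, and 0.28 without them. Slco1a1 and the stellate sum had r = 0.45 and rho = 0.47, and 0.06 with the GC slope removed. Among these markers Lrat was at 0 in all 36 libraries. The part of other cells in the diet values of the members was not tested.

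For each member the 2 genes most like it were taken from 10960 tested genes, by Pearson r of log2 CPM with diet means removed over the 36 libraries. They are a description, since libraries share depth and GC slope. Slco1a1 was closest to Serinc1 (0.978) and Mob4 (0.961), whose longest transcripts are 40.8% and 37.8% GC. Slco1b2 was closest to Acbd5 (0.926) and Ulk2 (0.913), and Slco1a4 to Slc16a7 (0.874), a monocarboxylate carrier, and Hpgd (0.846), a prostaglandin dehydrogenase. Abcc2 was closest to Sox6 (0.911) and Ppara (0.886), the fatty acid sensing nuclear receptor. Abcc3 was closest to Vnn1 (0.792), a pantetheinase, and Aldh3a2 (0.790), a fatty aldehyde dehydrogenase. Slco2b1 was closest to Mfn2 (0.806) and Prodh (0.770), Slc22a7 to Ppm1m (0.810) and Snap47 (0.775), and Abcg2 to Blmh (0.749) and Rtn4ip1 (0.716). Abcc4 was closest to Ehd3 (0.857) and Oit3 (0.853).

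Of 42 other genes of the same transporter families, 31 could be tested, and 0 passed in any of the 5 comparisons by edgeR. At an unadjusted p under 0.05 there were 5 with red against control, 2 with tangerine against control, 5 between the tomato diets, 4 for both tomato diets together and 6 for any difference. That is 16.1%, 6.45%, 16.1%, 12.9% and 19.4% of the 31, where all genes gave 13.3%, 5.47%, 15.1%, 6.77% and 13.9%. DESeq2 called 2, 0, 1, 0 and 2 in the same order, and limma-voom 3, 0, 3, 0 and 5, where DESeq2 called 1.17%, 0.0426%, 2.78%, 0.0853% and 2.72% of all genes and limma-voom 10.5%, 0.0142%, 5.2%, 0.242% and 7.9%. These were Abcb1a, Slc10a2, Abcb11, Slc22a18 and Slco2a1, the prostaglandin transporter, which is named here only after its values were seen. The median log2 fold change of the 31 was 0.06, 0.07 and 0.04 in the 3 pairwise comparisons, against 0.00, -0.01 and 0.00 over all genes. Abcb1a, a drug efflux pump (P-glycoprotein), had the smallest p in red against control. Its level was 1.93 ± 0.541 CPM (SD, n = 12) in control, 1.19 ± 0.404 in red and 1.65 ± 0.332 in tangerine, a log2 difference of -0.69 (SE 0.16) with an adjusted p of 0.0591 by edgeR, and of 0.0277 without Red 186. It was -0.52 with the clock score in the model (adjusted p 0.375 by edgeR) and -0.49 with the GC slope as well (adjusted p 0.243 by edgeR). Without the filter on low counts the adjusted p was 0.0911 by edgeR. With the GC slope alone it was -0.667 (adjusted p 0.0456 by edgeR), and with upper-quartile scaling -0.675 (adjusted p 0.0499 by edgeR). Slc10a2, a sodium-dependent bile acid carrier, was next at -0.52 (SE 0.14, adjusted p 0.0963 by edgeR), and DESeq2 and limma-voom called both genes. In tangerine against red, Abcb11, the canalicular bile salt export pump, was at 434 ± 44.7 CPM in red and 375 ± 43.6 in tangerine, a log2 difference of -0.21 (SE 0.06, adjusted p 0.0726 by edgeR, and 0.0412 without Red 186). It was -0.19 without Tangerine 216 (adjusted p 0.149 by edgeR) and -0.10 with the clock score in the model (adjusted p 0.595 by edgeR). With the GC slope alone in the model it was -0.23 (adjusted p 0.0329 by edgeR). Slc22a15 followed at -0.29 (SE 0.10, adjusted p 0.132 by edgeR). In tangerine against control, Slc22a18 had a log2 difference of 0.17 (SE 0.06, adjusted p 0.722 by edgeR).

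All 12 listed regulators of transporter genes were tested and 0 passed by edgeR in any comparison. In each of the 5 comparisons 1 of 12 (8.33%) had an unadjusted p under 0.05. All genes gave 13.3%, 5.47%, 15.1%, 6.77% and 13.9%, in the same order as for the other transporters. DESeq2 also called 0, and limma-voom 1, Stat5b, in red against control and for any difference. Of all genes limma-voom called 10.5% and 7.9% in these 2 comparisons. Stat5b, which relays growth hormone signals, was at 62.0 ± 8.90 CPM in control, 73.5 ± 9.16 in red and 63.8 ± 8.37 in tangerine. Its log2 difference was 0.24 (SE 0.08, adjusted p 0.143 by edgeR) for red against control and -0.20 (SE 0.08, adjusted p 0.184 by edgeR) for tangerine against red. Nfe2l2, the oxidative stress sensor, had -0.10 (SE 0.07) in red against control and 0.13 (SE 0.07) in tangerine against red. In tangerine against control Ppara had 0.33 (SE 0.16, adjusted p 0.890 by edgeR) and Hnf4a -0.11 (SE 0.07, adjusted p 0.967 by edgeR).

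The 11 listed non-transporter targets of the same receptors were chosen with earlier results of these data known. The shares of all genes given beside them are therefore no test of the list. All 11 were tested, and 2 of them passed in some comparison by edgeR. It called 1 in tangerine against control, where 0.0142% of all genes passed, and 2 in tangerine against red, where 1.71% did. In red against control it called 0, with 4 at an unadjusted p under 0.05 where 13.3% of all genes were. There DESeq2 and limma-voom each called 1, Gclc, and of all genes they called 1.17% and 10.5%. For both tomato diets against control edgeR called 0, with 3 at an unadjusted p under 0.05 where 6.77% of all genes were. DESeq2 called 0 and limma-voom 1, and of all genes they called 0.0853% and 0.242%. Cyp1a2, a classic target of the aryl hydrocarbon receptor, was at 401 ± 70.9 CPM (SD, n = 12) in control, 431 ± 70.6 in red and 583 ± 84.0 in tangerine. It rose in tangerine against control by 0.54 (SE 0.10, adjusted p 0.0115 by edgeR) and was higher in tangerine than in red by 0.44 (SE 0.10, adjusted p 0.0155 by edgeR), while red and control differed by 0.10 (SE 0.10). Gclc, the catalytic subunit of glutathione synthesis and an NRF2 target, was at 280 ± 58.3 CPM in control, 370 ± 60.4 in red and 274 ± 62.8 in tangerine. It was lower in tangerine than in red by a log2 difference of -0.43 (SE 0.11, adjusted p 0.0359 by edgeR), while its difference between red and control was 0.40 (SE 0.11, adjusted p 0.0978 by edgeR). For red against control the adjusted p of Gclc was 0.0371 by DESeq2, 0.0277 by limma-voom and 0.0440 by edgeR with the GC slope in the model. With the clock score in the model the tangerine against red value was 0.28 for Cyp1a2 (adjusted p 0.336 by edgeR) and -0.15 for Gclc (adjusted p 0.639 by edgeR). With mouse number in the model Cyp1a2 differed in tangerine by 0.48 from control and by 0.38 from red (adjusted p 0.0839 and 0.0539 by edgeR), and Gclc differed between tangerine and red by -0.41 (adjusted p 0.0952 by edgeR). Without Tangerine 216 the latter was -0.42 (adjusted p 0.0751 by edgeR), and without the filter on low counts -0.43 (adjusted p 0.0621 by edgeR). Both genes also passed for any difference by edgeR, where 1.18% of all genes did, and neither did for both tomato diets against control. For any difference 0 of the 11 passed with the clock score in the model. Only 1 passed with mouse number in the model, without the filter on low counts, without Red 186 or without Tangerine 216. Gclm, the modifier subunit, had 0.27 (SE 0.08) in red against control with an adjusted p of 0.132 by edgeR. Cyp2b10, the classic target of the constitutive androstane receptor, lay at a mean of 0.206 CPM in control, 0.553 in red and 0.629 in tangerine. Its log2 difference from control was 1.39 (SE 0.56, adjusted p 0.274 by edgeR) in red and 1.55 (SE 0.56, adjusted p 0.683 by edgeR) in tangerine. At this level it rests on few counts.

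Slco1a1 is sex-biased in mouse liver, so 7 male-biased and 7 female-biased liver genes were examined as well. Of the male-biased genes 6 were tested and 0 passed by edgeR, and the untested gene had 0 counts in every library. At an unadjusted p under 0.05 there was 1 of 6 (16.7%) in red against control, tangerine against red and any difference. All genes gave 13.3%, 15.1% and 13.9% there. In the other comparisons there were 0 of 6. Elovl3, a fatty acid elongase, was at 238 ± 205 CPM in control, 413 ± 161 in red and 185 ± 105 in tangerine. Its log2 differences were 0.80 (SE 0.33, adjusted p 0.290 by edgeR) for red against control and -1.16 (SE 0.33, adjusted p 0.0657 by edgeR) for tangerine against red. In a fit of only those 2 diets, tangerine against red had an adjusted p of 0.0360 by edgeR. Cyp4a12a had 0.17 and -0.17 in the same comparisons, and in tangerine against control Cyp7b1 had 0.34 and Cyp2d9 0.14. Of the female-biased genes 4 were tested and 0 passed in the reported edgeR fit. At an unadjusted p under 0.05 there was 1 of 4 (25%) in every comparison but tangerine against control, which had 0. All genes gave 13.3% with red against control, 15.1% between the tomato diets, 6.77% for both tomato diets and 13.9% for any difference. Cyp2a4, a steroid hydroxylase, was at 6.62 ± 3.40 CPM in control, 3.48 ± 1.95 in red and 6.52 ± 2.29 in tangerine. Its log2 differences were -0.93 (SE 0.27, adjusted p 0.107 by edgeR) for red against control and 0.91 (SE 0.26, adjusted p 0.0687 by edgeR) for tangerine against red, and the latter was -0.02 with the clock score in the model. In a fit of only those 2 diets its tangerine against red value had an adjusted p of 0.0375 by edgeR. With the GC slope in the model that adjusted p was 0.0327 by edgeR. Cyp3a41a had 0.58, 0.14 and -0.44 in the 3 pairwise comparisons, and Cux2 had -0.40 in tangerine against control. DESeq2 called Elovl3 and Cyp2a4 in tangerine against red and for any difference, and Cyp2a4 in red against control. The limma-voom fit called both genes in all of these comparisons. Of all genes DESeq2 called 2.78%, 2.72% and 1.17% in tangerine against red, any difference and red against control, and limma-voom 5.2%, 7.9% and 10.5%.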

How the data were processed

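The deposited table holds raw counts per gene, made by the authors from liver RNA libraries built with a directional kit, per the labels' protocols. FastQC, Trimmomatic, edgeR and the genome GRCm38.p6 are named in the submitters' processing notes. The aligner, the counter, the annotation and the use of strand are not given in the sources used here. Gene identifiers were matched to GENCODE symbols for 53620 of 53715 genes. Each library is a separate mouse. No pair of libraries agreed within sampling noise (chi-square per degree of freedom of at least 13.7).

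Genes passing filterByExpr (14068) were fitted in edgeR 4.0.16 with trimmed mean of M values scaling and robust quasi-likelihood F tests over all 36 libraries. Standard errors were derived from the fold change and F. Alternatives were DESeq2 1.42.0, limma-voom 3.58.1, other scalings, filters, covariates and left-out libraries. Relations used log2 CPM (prior count 2) with diet means removed and 100000 permutations within diets. Methods were tested on simulated data. Confidence and precision rest on 12 mice per diet.

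The members and gene lists were chosen with earlier results of these data known. Named beside the members are listed genes that passed in any comparison, the 2 tested genes of each list with the smallest p in each pairwise comparison, and the 2 genes most like each member. The values of 1 gene that this rule names are not reported here. The GC slope, its covariate fits, the relations to cell markers and the leaving out of libraries other than Red 186 and Tangerine 216 were added after the data were seen.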

Additional observations from a re-analysis of the deposited data

How the results depend on the processing

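Of 36 log2 fold changes (9 members, 4 comparisons) recomputed under up to 14 settings, 495 values in all, 464 kept their direction and side of the threshold, 3 passed it and 28 changed sign. No changed sign belonged to a called value, and the causes were not tested. Values of Abcc4 for which DESeq2 gave no adjusted p were counted as not past the threshold. The number of members called in red against control was 0 in the reported fit, 1 by the DESeq2 test and 2 by limma-voom. In every fit that left out 1 library it was 0, as it was in the other comparisons. The 3 values that passed are given in the report. Over all genes edgeR, DESeq2 and limma-voom called 21, 164 and 1482 in red against control, 2, 6 and 2 in tangerine against control, and 241, 391 and 732 in tangerine against red. They called 1, 12 and 34 for both tomato diets and 166, 383 and 1111 for any difference.

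With the clock score as covariate, tangerine against red became -0.040 for Slco1a4, -0.104 for Abcc2, 0.0512 for Stat5b, -0.0181 for Cyp2a4 and 0.0236 for Cyp3a41a. Red against control became 0.159 for Abcc2, and tangerine against control -0.0218 for Slco1b2. With the GC slope, red against control became 0.034 for Slco1a1 and 0.0203 for Abcc2, both tomato diets against control 0.0837 for Slco1a1, and tangerine against red -0.0246 for Abcc4. With both covariates, red against control became 0.0802 for Slco1a1, 0.0813 for Slco1a4, 0.0416 for Slco1b2 and 0.234 for Abcc2. Tangerine against red became -0.199 for Slco1a4, -0.0232 for Slco1b2, -0.166 for Abcc2, -0.0377 for Abcc4 and 0.0322 for Stat5b. Both tomato diets against control became 0.101 for Slco1a1, 0.030 for Slco1b2 and -0.0135 for Slc22a7.

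By limma-voom, tangerine against control became -0.029 for Slco1a1, -0.0892 for Slco1b2 and -0.0701 for Cyp3a41a, red against control 0.0077 for Slc22a7, and both tomato diets against control -0.0639 for Abcc2. Tangerine against control in Slco1b2 was 0.00189 without Red 186, -0.0069 without Tangerine 216 and -0.00695 without both. Tangerine against red in Abcc4 was 0.0248, -0.0313 and -0.0235 in the same order. With only the 2 diets compared, tangerine against control in Slco1b2 became -0.000221.

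With the GC slope removed, 3 members rather than 1 were related to the clock score, 2 rather than 4 relations to cell markers passed, and Slco1a1 and Slco1a4 had r = -0.0025. No paired analysis was possible because no mouse number occurs in more than 1 diet. Abcc4, at 15 to 85 counts per library, is the member most limited by depth.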
